A study of Saccharomyces cerevisiae S288C with 18 samples.

Results

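The RNAs that co-purify with Pab1-TAP were set against those that co-purify with Lsm1-TAP in 6 of the 18 RNA-seq libraries of the series, 3 libraries of each purification, chosen by the bait protein in the sample labels and not by any measured value. Each bait carried the TAP tag, a calmodulin-binding peptide, a TEV protease site and Protein A, at its own gene in Saccharomyces cerevisiae. Cells grew exponentially in YPD, a rich glucose medium, at 30 °C. The tagged protein was collected in 1 step on magnetic beads with IgG. RNA was extracted with hot acid phenol and depleted of ribosomal RNA with either RiboZero or Ribominus, and the labels do not say which library had which. The 3 replicates of a purification were independent experiments done at different dates. Values from 3 control purifications, made from the untagged strain BY4741, and from 3 libraries of input, the RNA of the total extract, are given beside the main comparison where they help to read it. Each purification stands for 1 tagged strain, so that an effect of the tag or of the strain cannot be told apart from the choice of bait.

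Most poly(A) tails in the yeast cytoplasm are bound by Pab1. It coats the adenosine tail at the 3′ end of mRNAs and contacts the translation factor eIF4G. Lsm1 belongs to the Lsm1-7 ring, which with Pat1 binds RNAs whose tail has been shortened to a few adenosines and activates removal of the cap, after which the exonuclease Xrn1 degrades the RNA. Setting one purification against the other asks which RNAs were found more with the long-tail binder and which more with the decapping activator. The contrast alone does not tell RNA bound to Lsm1 from RNA that the control purification holds as well.

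The count tables list 23521 features, which are open reading frames (ORFs) of genes without intron, exons and introns of genes with introns, 5′ and 3′ untranslated regions (UTRs), and noncoding transcripts. Total counts were 8437776, 16381719 and 4769639 reads in Pab1-TAP and 5244702, 10939069 and 8132118 reads in Lsm1-TAP. Ribosomal RNA took 0.0691%, 0.0856% and 13.4% of the reads in Pab1-TAP and 1.11%, 8.35% and 5.70% in Lsm1-TAP. Pab1-TAP replicate 3 therefore stood apart from the other Pab1-TAP libraries, and over the kept features its Spearman correlation with them was 0.868 and 0.892, against 0.981 between replicates 1 and 2. The Lsm1-TAP libraries correlated at 0.927 to 0.955 with each other. Levels are given in CPM, counts scaled to a fixed library total after TMM scaling of library sizes, so that they are shares of a library and not amounts of RNA.

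Both bait labels could be checked in the data, because a TAP cassette separates the 3′ UTR of the tagged gene from its ORF. The 3′ UTR of PAB1 had 0, 0 and 0 reads in Pab1-TAP, against 185, 223 and 194 reads in Lsm1-TAP. The 3′ UTR of LSM1 had 639, 1163 and 183 reads in Pab1-TAP, against 53, 80 and 93 reads in Lsm1-TAP. Relative to the reads of the LSM1 ORF these were 55.3%, 53.3% and 98.9% in Pab1-TAP, against 15.3%, 10.8% and 17.9% in Lsm1-TAP. Each tagged gene thus had no 3′ UTR reads, or a smaller share of them, in the libraries labelled with it. The LSM1 ORF had 73.1, 98.0 and 33.2 CPM in Pab1-TAP and 41.2, 59.4 and 46.5 CPM in Lsm1-TAP, and these overlapped (log2 fold change 0.48 ± 0.44, SE, adjusted p = 0.47). The PAB1 ORF had 374, 298 and 135 CPM in Pab1-TAP and 840, 1125 and 698 CPM in Lsm1-TAP, with no overlap (log2 fold change −1.72 ± 0.50, adjusted p = 0.023, and at most 0.097 without Pab1-TAP replicate 2 or 3 or Lsm1-TAP replicate 1 or 2). The 5′ UTR of PAB1 was lower as well, with 2.53, 2.69 and 2.51 CPM in Pab1-TAP and 11.1, 8.02 and 5.81 CPM in Lsm1-TAP (−1.68, adjusted p = 0.019, at most 0.091 without Lsm1-TAP replicate 1 or Pab1-TAP replicate 2 or 3). Since PAB1 is the tagged gene in one of the strains, these differences cannot be told apart from an effect of the tag on its own mRNA.

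A feature was kept where 3 or more libraries each had 10 or more of its reads. Of the 12582 kept features 20.1% differed between the purifications, of which 1268 were higher in Pab1-TAP than in Lsm1-TAP (10.1%) and 1265 were lower (10.1%), at an adjusted p of at most 0.05 in edgeR's quasi-likelihood test. Features that passed are said below to have risen, fallen or been called. Among the 5935 ORF and exon features, taken below as the genes, 519 rose (8.74%) and 916 fell (15.4%). With the replicate number as a block in the same fit, 2332 features rose (18.5%) and 2353 fell (18.7%). Among genes the blocked fit called 991 higher (16.7%) and 1643 lower (27.7%). Scaling by the total count alone, in place of TMM, moved the median log2 fold change of all kept features to 0.16, against 0.06, and left 528 features higher and 177 lower, so that 74.9% of the calls were increases, against 50.1% with TMM. Without Lsm1-TAP replicate 1 only 429 features rose and 520 fell, and without Pab1-TAP replicate 3 the counts were 692 and 719. Without Lsm1-TAP replicate 2, 827 features rose, and without Pab1-TAP replicate 2, 775 fell. Of the 150 named features that were called, 78 were called without each of the 6 libraries in turn and 72 were not. For these 72 the highest adjusted p over the left-out libraries is given in brackets as "up to", with the libraries it concerns.

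The coding length of a gene went along with most of the fold changes. Of the 5679 genes with a coding length, those that rose in Pab1-TAP had a median coding length of 445.5 nt and those that fell one of 2667 nt, against 1230 nt for all. Across these genes the Spearman correlation between the log2 fold change and the coding length was −0.73. It was −0.68, −0.72 and −0.70 when Pab1-TAP was set against Lsm1-TAP within replicate 1, 2 and 3, so that each pair of libraries showed it. Genes are not independent replicates, and all share these libraries, so the correlation is a description.

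Step by step along the length classes the median log2 fold change fell. It was 1.72 in the 62 genes of up to 200 nt, of which 31 rose and 3 fell. It was 0.96 in the 810 genes of over 300 and up to 600 nt, of which 233 rose and 29 fell. In the 876 genes of over 900 and up to 1200 nt it was 0.11, and 38 rose and 32 fell. In the 592 genes of over 2400 and up to 3600 nt the median was −1.04, with 1 gene higher and 269 lower. In the 281 genes over 3600 nt it was −1.53, with 0 higher and 244 lower. The relation was closer among the 4245 genes with a mean of at least 20 CPM (Spearman correlation −0.84) than among the 1434 genes below that level (−0.40). Neither GC content (0.12) nor the level in the input (−0.005) followed the fold change in this way.

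**Figure D1:**
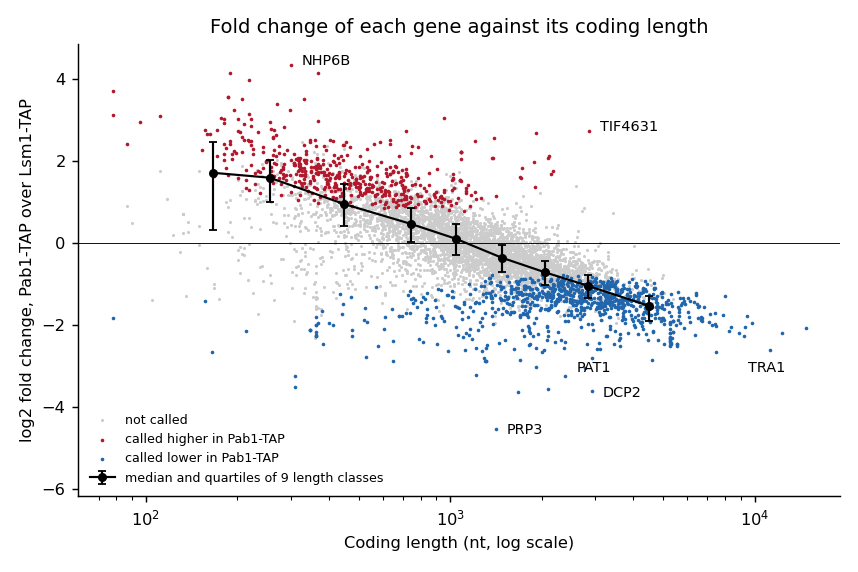
Log2 fold change of each gene, Pab1-TAP over Lsm1-TAP, against its coding length in nt on a log axis. Red points rose, blue points fell and grey points were not called, and black points with bars give the median and quartiles of the 9 length classes, which run from 1.72 in genes of up to 200 nt to −1.53 in genes over 3600 nt. NHP6B and TIF4631 lie above the trend, and PRP3, PAT1 and DCP2 lie below it.

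The same pattern was visible as shares of reads, with no model. Genes with coding sequences of at most 600 nt, 1239 of the 5995 genes with a length, took 28.4%, 38.3% and 44.2% of the gene reads in Pab1-TAP, against 8.81%, 17.4% and 17.5% in Lsm1-TAP. The control purification had 13.2%, 16.2% and 17.2%, and the input 25%, 25.3% and 34.5%. Every Pab1-TAP library was above every Lsm1-TAP library, by 22.4 percentage points on average (two-sided exact permutation p = 0.1, the smallest that 3 against 3 libraries allow). The 309 genes over 3600 nt took 5.12%, 3.22% and 2.38% in Pab1-TAP, against 19.2%, 9.12% and 8.71% in Lsm1-TAP, 13.9%, 11.2% and 9.85% in the control purification and 2.55%, 2.12% and 2.97% in the input. The difference between Pab1-TAP and Lsm1-TAP was −8.77 percentage points (exact permutation p = 0.1, again the smallest possible). In both length classes the Lsm1-TAP mean was nearer to the control purification than to the input, and the Pab1-TAP mean was nearer to the input. Set against the control purification, the log2 fold change of Pab1-TAP had a Spearman correlation of −0.77 with coding length, and that of Lsm1-TAP one of 0.01.

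**Figure D2:**
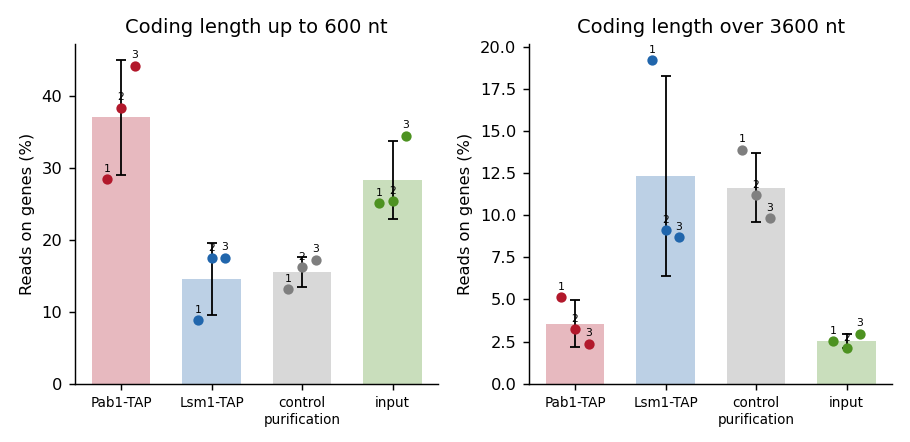
Share of the reads on genes, in percent, that fell on genes with a coding sequence of up to 600 nt (left) and over 3600 nt (right), for Pab1-TAP, Lsm1-TAP, the control purification and the input. Points are libraries with their replicate number, bars are means and error bars SD (n = 3). Pab1-TAP lies between 28.4% and 44.2% for short genes and Lsm1-TAP between 8.81% and 17.5%.

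Because so many calls followed length, the genes were fitted a second time with an offset that takes the trend with coding length off each library. This offset was added after the trend had been seen. It left a Spearman correlation of −0.03, and 83 of 5679 genes rose (1.46%) and 219 fell (3.86%). Of these, 66 and 168 were among the 500 and 902 genes with a length called without the offset, and 0 genes changed direction between calls. With the replicate block added to the offset, 381 genes rose (6.71%) and 568 fell (10.0%). For named genes the log2 fold change with the offset is given below where it changes the reading, and it is relative to other genes of the same length.

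Among the abundant mRNAs, TIF4631 stood out most from its length. TIF4631 (YGR162W, chrVII:824059-826917 in build R64) encodes eIF4G1, the translation initiation factor that binds Pab1, in 2859 nt. It had 2220, 2666 and 11162 CPM in Pab1-TAP, against 762, 946 and 715 CPM in Lsm1-TAP, 579 ± 98.3 CPM in the control purification and 349 ± 74.0 CPM in the input (SD, n = 3). All Pab1-TAP libraries were above all others, and replicate 3 was the highest. Its log2 fold change was 2.73 ± 0.52 (SE, adjusted p = 0.0031, at most 0.019 without any 1 library), and 4.19 with the coding length offset (adjusted p = 0.0034). TIF4632, which encodes the second eIF4G, was looked at after its paralog's values were seen. It had 105, 144 and 643 CPM in Pab1-TAP and 166, 147 and 177 CPM in Lsm1-TAP, which overlapped (log2 fold change 0.86, adjusted p = 0.28). With the offset its value was 2.29 (adjusted p = 0.077, and 0.011 with the replicate block).

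The largest increases among genes with a mean of at least 20 CPM were mostly very short reading frames. NHP6B (YBR089C-A, chrII:426190-426489), a small HMG-box DNA-binding protein of chromatin, had 102, 113 and 426 CPM in Pab1-TAP, against 7.26, 9.30 and 14.6 CPM in Lsm1-TAP. There was no overlap, and the control purification had 18.3 ± 6.94 CPM (SD, n = 3). Its log2 fold change was 4.36 ± 0.59 (adjusted p = 0.00057), and 3.01 with the length offset (adjusted p = 0.0050). CUP1-1 and CUP1-2, identical copies of the metallothionein gene that binds copper, each had 686, 973 and 1911 CPM in Pab1-TAP, against 46.1, 102 and 151 CPM in Lsm1-TAP (log2 fold change 3.57, adjusted p = 0.00091, and 1.93 with the offset, adjusted p = 0.019). Reads of these copies cannot be assigned to one of them. YLR146W-A, a reading frame of 189 nt, had 33.0, 55.7 and 81.2 CPM in Pab1-TAP and 1.43, 3.69 and 4.38 CPM in Lsm1-TAP (log2 fold change 4.14, adjusted p = 0.00057, and 2.52 with the offset, adjusted p = 0.0044).

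The other members of the 12 largest increases had log2 fold changes of 3.16 to 3.98. They were DAD4, a subunit of the DASH ring at kinetochores (3.98), YBR126W-B (3.75), RPL41B, the smallest ribosomal protein (3.72), YJR112W-A (3.52), WIP1, a kinetochore protein (3.4), TMA7, a ribosome-associated protein (3.25), EGO4 (3.24) and TFB5, a subunit of the transcription and repair factor TFIIH (3.16). DAD4, RPL41B and YJR112W-A were no longer called without Lsm1-TAP replicate 1 or Pab1-TAP replicate 3 (adjusted p up to 0.089, 0.14 and 0.073), TMA7 not without these or Lsm1-TAP replicate 2 (up to 0.14), and EGO4 not without Pab1-TAP replicate 3 or any 1 Lsm1-TAP library (up to 0.51). Relative to genes of their own length, none of DAD4, RPL41B, YJR112W-A, WIP1, TMA7, EGO4 and TFB5 passed (adjusted p with the offset 0.078 to 0.48). With the replicate block added to the offset DAD4, WIP1, TMA7, YJR112W-A and TFB5 did (adjusted p = 0.00078, 0.0027, 0.0041, 0.0056 and 0.035) and RPL41B and EGO4 did not (0.088 and 0.063), and YBR126W-B had no coding length in the annotation.

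The largest decrease belonged to PRP3 (YDR473C, chrIV:1404445-1405854), which encodes a protein of the U4/U6 snRNP of the spliceosome. It had 7.27, 11.8 and 19.0 CPM in Pab1-TAP, against 86.9, 214 and 567 CPM in Lsm1-TAP, 24.0 ± 13.3 CPM in the control purification and 3.88 ± 1.00 CPM in the input (SD, n = 3). The mRNA was thus scarce in the input and the libraries of Lsm1-TAP were the highest of the 4 groups. Its log2 fold change was −4.52 ± 0.65 (adjusted p = 0.00063), and −4.09 with the length offset (adjusted p = 0.0044). YJR149W had 11.4, 6.96 and 3.41 CPM in Pab1-TAP and 125, 46.4 and 34.2 CPM in Lsm1-TAP (log2 fold change −3.21, adjusted p = 0.00081, and −3.14 with the offset, adjusted p = 0.0023).

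**Figure D3:**
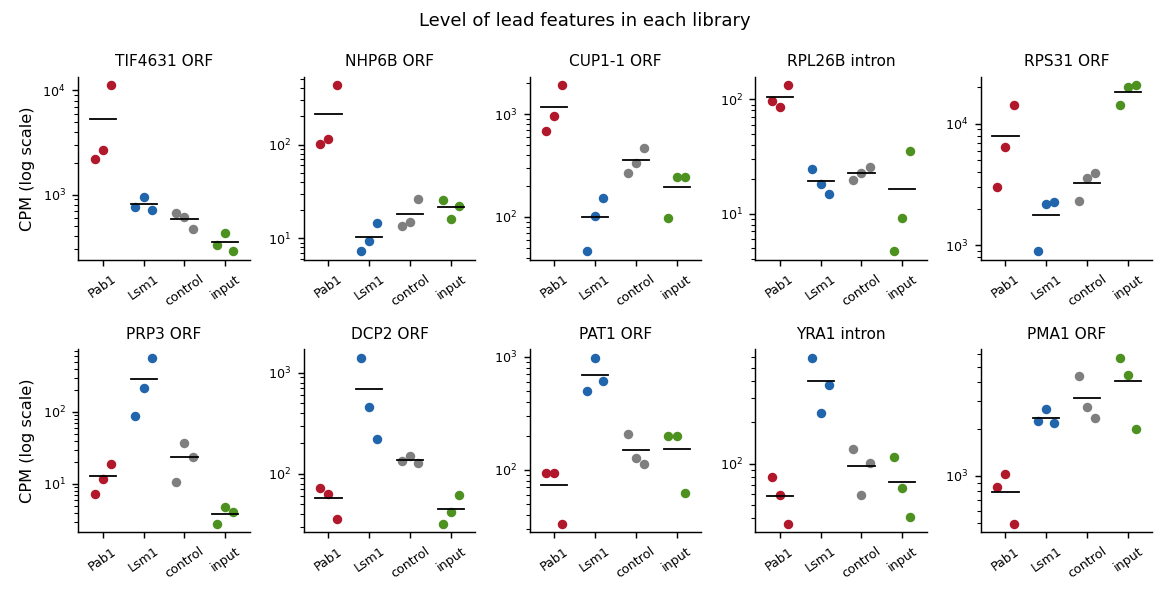
CPM on a log axis in each library of Pab1-TAP, Lsm1-TAP, the control purification and the input, for 10 features, with lines at the group means. TIF4631, NHP6B, CUP1-1, the RPL26B intron and RPS31 are higher in all 3 Pab1-TAP libraries than in the 3 Lsm1-TAP libraries, and PRP3, DCP2, PAT1, the YRA1 intron and PMA1 are lower in all 3.

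Next came mRNAs that encode the decapping machinery itself. DCP2 (YNL118C, chrXIV:402652-405564), the decapping enzyme, had 72.0, 63.4 and 35.6 CPM in Pab1-TAP, against 1409, 462 and 220 CPM in Lsm1-TAP and 137 ± 11.9 CPM in the control purification (SD, n = 3). Lsm1-TAP replicate 1 was by far the highest, and even the lowest Lsm1-TAP library was above every other one (log2 fold change −3.61 ± 0.53, adjusted p = 0.00063, and −2.41 with the offset, adjusted p = 0.0046). PAT1 (YCR077C, chrIII:250238-252628), whose protein binds the Lsm1-7 ring, had 94.4, 93.8 and 33.4 CPM in Pab1-TAP, against 498, 983 and 617 CPM in Lsm1-TAP and 150 ± 51.3 CPM in the control purification. The groups did not overlap (log2 fold change −3.24 ± 0.56, adjusted p = 0.0016, and −2.47 with the offset, adjusted p = 0.0052). Both calls held without each of the 6 libraries in turn.

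Of the 17 measured genes in the list of decapping factors and Lsm1-7 subunits, 4 rose and 6 fell (2 and 2 with total count scaling). Over all genes 8.74% rose and 15.4% fell. In a fit of the 6 libraries alone, 1 rose and 2 fell. Beside DCP2 and PAT1, those that fell were XRN1, the cytoplasmic 5′ to 3′ exonuclease (−1.34), EDC3, an enhancer of decapping (−1.35), PBY1, a protein found with the decapping enzyme (−0.97) and DHH1, the RNA helicase that activates decapping. DHH1 had 30.2, 52.4 and 14.7 CPM in Pab1-TAP and 96.8, 128 and 80.2 CPM in Lsm1-TAP (log2 fold change −1.64, adjusted p = 0.013, 0.052 without Pab1-TAP replicate 3, and −1.30 with the offset, adjusted p = 0.029). Those that rose were LSM2 (1.54), LSM5 (1.82), LSM6 (2.60) and LSM7 (1.76), subunits of the ring of 261 to 348 nt. LSM6 had 101, 151 and 270 CPM in Pab1-TAP and 15.6, 31.0 and 39.4 CPM in Lsm1-TAP, without overlap (adjusted p = 0.0022).

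With the coding length offset this list had 0 genes higher and 4 lower, which were DCP2, PAT1, DHH1 and EDC1, a small decapping activator (−1.91 with the offset, −1.07 without it, at adjusted p = 0.15, and 0.036 with the replicate block). LSM6 had 1.19 with the offset (adjusted p = 0.071, and 0.0021 with the block added), and XRN1 changed sign, to 0.19. Part of these calls ended when 1 library was left out, which also leaves a smaller group. LSM2, LSM5 and LSM7 were not called without Lsm1-TAP replicate 1 (up to 0.089, 0.062 and 0.12), LSM2 and LSM5 also not without Pab1-TAP replicate 3, LSM2 not without Lsm1-TAP replicate 2, and LSM7 not without Lsm1-TAP replicate 3 or Pab1-TAP replicate 2. EDC3 was not called without Lsm1-TAP replicate 1 (up to 0.10), nor PBY1 without Lsm1-TAP replicate 3 or Pab1-TAP replicate 2 (up to 0.10). XRN1, EDC1, EDC3, DHH1, PBY1 and the 4 LSM genes were named after their values were seen.

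Of the 12 largest decreases, the genes not yet named ran from −3.05 to −2.62. They were LPX2 (−3.05), ARO10, a decarboxylase of amino acid breakdown (−3.02), SRO9, an RNA-binding protein with a La motif (−2.88), HCM1, a forkhead transcription factor (−2.86), GDB1, the glycogen debranching enzyme (−2.84), YBL111C (−2.66), HOB2 (−2.64) and YHR033W (−2.62). SRO9 had 49.1, 64.4 and 9.70 CPM in Pab1-TAP and 439, 359 and 115 CPM in Lsm1-TAP, and was not called without Lsm1-TAP replicate 1 (adjusted p = 0.058). HCM1 was not called without that library or Pab1-TAP replicate 3 (up to 0.10). All of these except HOB2 also passed with the length offset (log2 fold change −1.28 in GDB1 to −2.76 in SRO9, HOB2 −0.55 at 7470 nt). TRA1, the longest subunit of the SAGA and NuA4 complexes, was picked for its length of 11235 nt after its values were seen. It had 132, 121 and 61.4 CPM in Pab1-TAP and 960, 520 and 432 CPM in Lsm1-TAP (log2 fold change −2.60), and −0.28 with the offset.

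Ribosomal protein genes, which are short and abundant, were the largest group that moved up. Of 137 genes taken by their names, a pattern that also takes in the RNase P gene RPP1, 43 rose and 0 fell, and 130 had a positive log2 fold change, with a median of 1.12 against −0.19 for all genes. Among all genes 8.74% rose and 15.4% fell. RPS31, a ribosomal protein made as a fusion to ubiquitin, had 3020, 6474 and 14274 CPM in Pab1-TAP, against 892, 2201 and 2288 CPM in Lsm1-TAP and 18366 ± 3594 CPM in the input (SD, n = 3). RPS12, of the small subunit, had 1915, 3008 and 7451 CPM in Pab1-TAP and 540, 1714 and 1431 CPM in Lsm1-TAP. In both genes the groups did not overlap, with Pab1-TAP replicate 3 the highest, and the log2 fold changes were 2.14 (adjusted p = 0.029) and 1.75 (adjusted p = 0.041). Neither was called without Lsm1-TAP replicate 1 or 2 or Pab1-TAP replicate 3 (up to 0.16 and 0.25), nor was RPS12 without Lsm1-TAP replicate 3 or Pab1-TAP replicate 2.

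Within the ribosomal proteins RPL41B and RPL41A (3.72 and 3.12, 78 nt each), RPL29 (3.02, 180 nt), RPS29A (2.76, 171 nt) and RPL39 (2.75, 156 nt) had the highest fold changes, and RPL8A (−0.62, 771 nt, not called) the lowest. RPS17A, of the small subunit in 411 nt, had 1159, 2532 and 6917 CPM in Pab1-TAP and 240, 690 and 958 CPM in Lsm1-TAP, without overlap (2.49, adjusted p = 0.024, up to 0.15 without Lsm1-TAP replicate 1 or 2 or Pab1-TAP replicate 3). RPL41B and RPL41A were not called without Lsm1-TAP replicate 1 or Pab1-TAP replicate 3 (up to 0.14 and 0.28), RPL41A also not without Lsm1-TAP replicate 2. The median coding length of the list was 435 nt, and with the offset its median log2 fold change was 0.24, with 1 gene higher (RPL29, 1.32) and 1 lower (RPS28B, −1.79), and 9 higher and 3 lower with the block added to the offset. Paralogs of the same length were not alike in every case. RPS28B had 99.6, 144 and 310 CPM in Pab1-TAP and 178, 295 and 118 CPM in Lsm1-TAP, which overlapped (−0.10), while RPS28A, of the same 204 nt, had a log2 fold change of 2.71 and was called. The genes of this paragraph were named after their values were seen, except RPL41B, and the difference between the paralogs was not tested. Without Lsm1-TAP replicate 1, 10 of the ribosomal protein genes rose in place of 43, with total count scaling 19, and with the replicate block 73. In a fit of the 6 libraries alone, 3 rose.

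Other sets of short genes moved the same way. Of 71 mitochondrial ribosomal protein genes 19 rose and 0 fell (median 0.81, median coding length 699 nt), of 40 nuclear genes of the respiratory chain 13 rose and 1 fell (0.92, 459 nt), and of 8 core histone genes 4 rose and 0 fell (1.35, 397.5 nt). All genes together had 8.74% higher and 15.4% lower. Without Lsm1-TAP replicate 1 the numbers that rose were 6, 2 and 0, and with total count scaling 8, 6 and 0. In a fit of the 6 libraries alone they were 7, 6 and 1. MRPS12, of the small mitochondrial subunit, had 107, 149 and 205 CPM in Pab1-TAP and 38.3, 69.0 and 62.2 CPM in Lsm1-TAP (log2 fold change 1.44, adjusted p = 0.0087, 0.054 without Lsm1-TAP replicate 1). MRP8, taken into that list by its name, rose by 1.88 on the log2 scale (up to 0.11 without that library or Pab1-TAP replicate 3). ATP17, of the ATP synthase, had 38.3, 82.3 and 167 CPM in Pab1-TAP and 11.4, 26.9 and 37.5 CPM in Lsm1-TAP (1.92, adjusted p = 0.014), and COX13, of cytochrome c oxidase, had a log2 fold change of 1.56. The last-named pair was not called without Lsm1-TAP replicate 1 or Pab1-TAP replicate 3 (up to 0.090 for ATP17 and 0.089 for COX13). Among the histones the H3 gene HHT2 had 432, 791 and 837 CPM in Pab1-TAP and 178, 372 and 394 CPM in Lsm1-TAP, without overlap (1.13, adjusted p = 0.041, up to 0.17). The H2A genes HTA1 and HTA2 (1.55 and 1.37) and the H4 gene HHF2 (1.68) rose too, of which HTA1 and HHF2 were named after their values were seen, and none of the 4 histone calls held without Lsm1-TAP replicate 1 (HTA1 up to 0.054, HTA2 0.33, HHF2 0.088). HHT2 and HTA2 were also lost without Lsm1-TAP replicate 2 or Pab1-TAP replicate 2 or 3, and HHF2 without Pab1-TAP replicate 2. With the offset the medians of these 3 lists were 0.33, 0.13 and 0.37, and 0, 1 and 0 genes rose, the one being CYC1, a cytochrome c gene (1.17), and with the block added 6, 3 and 0. In the same fit 1 respiratory gene fell, QCR6 of the cytochrome bc1 complex (−1.79).

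The counts in lists of mixed length stand beside 8.74% of all genes that rose and 15.4% that fell. Of 21 heat shock genes 1 rose and 1 fell, of 21 vacuolar genes 2 rose and 3 fell, of 19 mating genes 2 rose and 2 fell, and of 16 genes of translocation into the endoplasmic reticulum 2 rose and 0 fell. HSP10, the mitochondrial co-chaperonin, had 345, 485 and 337 CPM in Pab1-TAP and 51.9, 158 and 113 CPM in Lsm1-TAP (log2 fold change 1.85, adjusted p = 0.0066). The vacuolar ATPase subunit VMA7 had 254, 386 and 685 CPM in Pab1-TAP and 95.4, 139 and 131 CPM in Lsm1-TAP (1.86, adjusted p = 0.0077). VMA10 rose as well (1.51, up to 0.13 without Lsm1-TAP replicate 1 or Pab1-TAP replicate 2). In none of these 3 genes did the groups overlap. MFA1, the precursor of the pheromone a-factor in 111 nt, had 183, 271 and 48.5 CPM in Pab1-TAP and 19.5, 26.1 and 13.0 CPM in Lsm1-TAP (3.10, adjusted p = 0.0078). SBH1 and SRP21, of translocation, rose by 2.00 and 1.2 on the log2 scale, each without a call when Lsm1-TAP replicate 1 or Pab1-TAP replicate 2 was left out (up to 0.21 and 0.15), SBH1 also without Lsm1-TAP replicate 3 or Pab1-TAP replicate 1 and SRP21 without Pab1-TAP replicate 3. With the offset none of HSP10, VMA7, VMA10, MFA1, SBH1 and SRP21 passed (adjusted p 0.25 to 0.65).

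Among the 29 genes that glucose represses or stress induces, 4 rose and 0 fell, and 2 of these did so relative to their length. The shares over all genes were 8.74% higher and 15.4% lower without the offset. ACS1, an acetyl-CoA synthetase, had a log2 fold change of 1.69 at 2142 nt and 2.54 with the offset, and GAL10, of galactose use, had 2.07 at 2100 nt (up to 0.077 without Lsm1-TAP replicate 1) and 2.92 with the offset. ACS1 and GAL10 were named after their values were seen. SPI1, a cell wall protein induced in stationary phase, had 28.3, 72.6 and 37.0 CPM in Pab1-TAP and 8.57, 13.5 and 4.2 CPM in Lsm1-TAP, without overlap (2.39, adjusted p = 0.0096). HSP31 rose by 1.09 on the log2 scale, and its call ended without any 1 library except Pab1-TAP replicate 1 (up to 0.31). With the offset SPI1 and HSP31 did not pass (adjusted p = 0.18 and 0.38, and 0.021 and 0.21 with the block added).

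In 4 lists of growth genes with long coding sequences some members fell and 0 rose. Of 42 ribosome biogenesis genes 0 rose and 18 fell (median log2 fold change −0.91, median coding length 1837.5 nt), of 35 plasma membrane transporters 0 rose and 11 fell (−0.97, 1779 nt), of 31 cell cycle genes 0 rose and 12 fell (−0.73, 1833 nt), and of 28 genes for general transcription 0 rose and 9 fell (−0.87, 1972.5 nt). These counts stand beside 8.74% of all genes that rose and 15.4% that fell. RPA190, the largest subunit of RNA polymerase I, had 212, 236 and 179 CPM in Pab1-TAP and 816, 710 and 713 CPM in Lsm1-TAP, with 936 ± 248 CPM in the control purification (−1.84, adjusted p = 0.0022). PMA1, the proton pump of the plasma membrane, had 843, 1035 and 494 CPM in Pab1-TAP and 2232, 2687 and 2177 CPM in Lsm1-TAP, with 3160 ± 1045 CPM in the control purification (−1.58, adjusted p = 0.021, 0.090 without Pab1-TAP replicate 3). RPB2, of RNA polymerase II, had 158, 147 and 129 CPM in Pab1-TAP and 441, 337 and 371 CPM in Lsm1-TAP, with 509 ± 61.8 CPM in the control purification (SD, n = 3 each) (−1.40, adjusted p = 0.0059). In all 3 the control mean was above that of Lsm1-TAP, as it was in 416 of the 916 genes that fell and in 410 of the 519 genes that rose.

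In these 3 genes the groups stood clear of each other, but none passed relative to its length (adjusted p with the offset 0.78, 0.35 and 0.98). RRP5 (−1.49, ribosomal RNA processing), RPO21 (−1.38, the largest subunit of RNA polymerase II, adjusted p = 0.052 without Pab1-TAP replicate 3), RNR1 (−1.84, ribonucleotide reductase), MCM3 (−1.17, the replicative helicase) and ITR1 (−1.03, inositol uptake) fell too. Leaving out 1 library ended the calls of RNR1, MCM3 (both without Lsm1-TAP replicate 1 or 2 or Pab1-TAP replicate 2 or 3, up to 0.12 and 0.18) and ITR1 (without any 1 of the 6, up to 0.15). With the offset the 4 lists had medians of −0.18, −0.33, −0.16 and −0.17 and 1, 1, 2 and 0 genes lower, and the values of RRP5 and RPO21 changed sign, to 0.20 and 0.20. Without Pab1-TAP replicate 3 the numbers of genes that fell were 7, 3, 3 and 3, and with the replicate block 29, 18, 15 and 16. With total count scaling they were 1, 0, 0 and 1, and with the block added to the offset 4, 4, 5 and 3. In a fit of the 6 libraries alone they were 3, 3, 2 and 2.

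**Figure D4:**
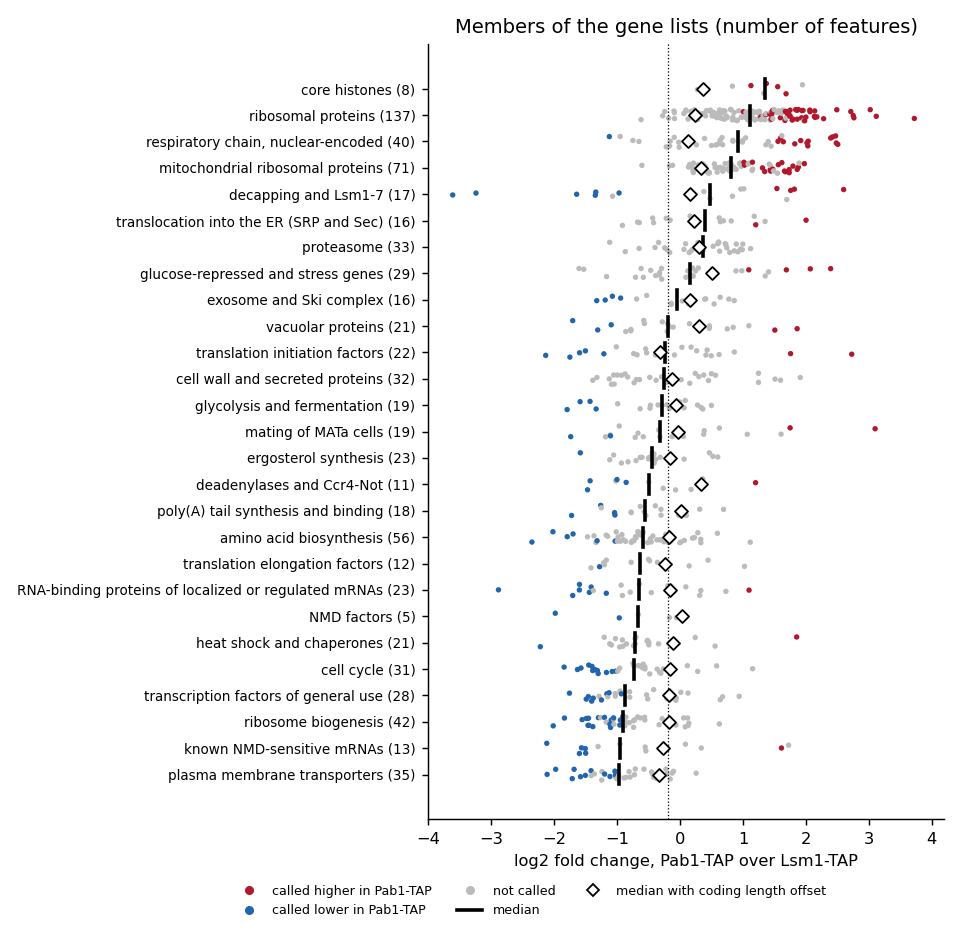
Log2 fold changes, Pab1-TAP over Lsm1-TAP, of the members of 27 gene lists, with the number of measured members in brackets. Red points rose, blue points fell, grey points were not called, black bars are list medians, open diamonds are medians with the coding length offset, and the dotted line is the median of all genes (−0.19). List medians run from 1.35 in core histones to −0.97 in plasma membrane transporters, and the diamonds lie closer together.

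Translation factors fell or were not called, apart from TIF4631 and SUI1. Of 22 initiation factor genes 2 rose and 5 fell (1 and 1 with total count scaling), beside 8.74% and 15.4% of all genes. In a fit of the 6 libraries alone, 1 rose and 2 fell. DED1, the RNA helicase of initiation, had 88.2, 146 and 166 CPM in Pab1-TAP and 442, 705 and 608 CPM in Lsm1-TAP, far apart, with 737 ± 90.2 CPM in the control purification (log2 fold change −2.13, adjusted p = 0.0013, and −1.40 with the offset, adjusted p = 0.036). NIP1 and RPG1, of eIF3, FUN12, which encodes eIF5B, and GCD11, of eIF2, had −1.75, −1.50, −1.6 and −1.21. NIP1 also fell relative to its length (−0.89). GCD11 was not called without Lsm1-TAP replicate 3 or Pab1-TAP replicate 3 (up to 0.075). SUI1, which encodes eIF1 in 327 nt, had 1.76 (up to 0.078 without Lsm1-TAP replicate 1 or Pab1-TAP replicate 2), and did not pass with the offset (adjusted p = 0.53). NIP1, RPG1, FUN12, GCD11 and SUI1 were named after their values were seen. SUP35, a release factor, had 192, 193 and 142 CPM in Pab1-TAP and 405, 428 and 445 CPM in Lsm1-TAP (−1.28, adjusted p = 0.0072) and was the only one of 12 elongation and termination genes that fell. With the offset 0 of these 12 genes were called, and with the block added 2 fell.

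Genes of the tail and of decay were called lower more often than higher, as were all genes, of which 8.74% rose and 15.4% fell. Of 18 genes for tail synthesis and binding 0 rose and 4 fell, among them PBP1, which encodes a partner of Pab1, with 103, 116 and 100 CPM in Pab1-TAP and 259, 255 and 251 CPM in Lsm1-TAP (−1.26, adjusted p = 0.0088). Of 11 genes for deadenylases and the Ccr4-Not complex 1 rose and 4 fell. CCR4, the main deadenylase, had 46.6, 60.1 and 31.6 CPM in Pab1-TAP and 124, 152 and 108 CPM in Lsm1-TAP (−1.47, adjusted p = 0.0086). CDC39, the scaffold of that complex, had −1.43 and NOT3 had −1.0, whereas the short CDC36 had 1.2, all in the same complex, and their calls ended without Lsm1-TAP replicate 1 or Pab1-TAP replicate 2 or 3 (up to 0.21, 0.11 and 0.17), those of CDC39 and CDC36 also without Lsm1-TAP replicate 2 and that of NOT3 without Lsm1-TAP replicate 3 or Pab1-TAP replicate 1. NOT3 and CDC36 were named after their values were seen. Of 16 exosome and Ski genes 0 rose and 4 fell, among them the helicase gene MTR4 (−1.07) and the nuclease gene DIS3 (−0.94), neither called without Lsm1-TAP replicate 1 or 3 or Pab1-TAP replicate 2 or 3 (up to 0.088 and 0.14), nor MTR4 without Pab1-TAP replicate 1. Without Lsm1-TAP replicate 1, 1 gene fell in each of these 3 lists, and with total count scaling 0. A fit of the 6 libraries alone also had 0 lower in each. With the offset 0 genes of the 3 lists were called, and with the block added 1 rose and 2 fell, 0 rose and 0 fell, and 1 rose and 0 fell, in that order of the lists. With the offset CDC39, MTR4 and DIS3 changed sign (0.37, 0.18 and 0.12).

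Among 5 genes for factors of nonsense-mediated decay (NMD), the quality control that degrades mRNAs with early stop codons, 0 rose and 2 fell. For this list and the next, the shares over all genes were 8.74% higher and 15.4% lower. NAM7, which encodes Upf1, had 126, 110 and 63.7 CPM in Pab1-TAP and 604, 325 and 255 CPM in Lsm1-TAP, without overlap (−1.98, adjusted p = 0.0026, and −0.86 with the offset, adjusted p = 0.047). NMD2, which encodes Upf2, had −0.96, and 0.18 as its highest adjusted p without 1 library (not called without Lsm1-TAP replicate 1 or Pab1-TAP replicate 1 or 3). Its value with the offset was 0.28. Of 13 mRNAs listed as NMD-sensitive 1 rose and 5 fell (1 fell without Lsm1-TAP replicate 1). With total count scaling 0 genes of either list were called. A fit of the 6 libraries alone had 1 factor gene lower, and 1 NMD-sensitive mRNA higher and 0 lower. CPA1, an arginine synthesis gene with an upstream reading frame, had 207, 148 and 47.0 CPM in Pab1-TAP, against 1038, 497 and 212 CPM in Lsm1-TAP and 78.4 ± 51.9 CPM in the control purification (SD, n = 3). Its lowest Lsm1-TAP library was only just above its highest Pab1-TAP library (−2.12, adjusted p = 0.046, up to 0.25). ALR1, a magnesium transporter, had −1.50 (up to 0.24, lost like CPA1 without Lsm1-TAP replicate 1 or Pab1-TAP replicate 2 or 3), and CPA1 was lost without Lsm1-TAP replicate 2 as well. EST3, of telomerase, rose (1.61). With the offset CTF13 (−1.29), FZF1 (−1.85) and YRA1 (−1.17) of this list fell, and 0 rose (5 and 1 with the block added). YRA1 is counted here by the list alone, since its unspliced RNA is known for decapping with the help of Edc3 (below). CTF13, a kinetochore protein, was not called without the offset when Lsm1-TAP replicate 1 was left out (up to 0.075). EST3, CTF13, FZF1 and YRA1 were named after their values were seen. CCW22, a further mRNA of the list, overlapped between groups, with 78.1, 108 and 25.7 CPM in Pab1-TAP and 25.2, 33.1 and 5.98 CPM in Lsm1-TAP (1.72, adjusted p = 0.22, and 0.010 with the replicate block).

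In 3 lists of metabolic genes the calls were decreases. The glycolytic enzyme gene PFK1 had 245, 309 and 284 CPM in Pab1-TAP and 600, 791 and 868 CPM in Lsm1-TAP, without overlap, with 1207 ± 98.2 CPM in the control purification (−1.43, adjusted p = 0.012), and −0.28 with the offset (adjusted p = 0.78). It was 1 of 4 genes that fell among 19 of glycolysis and fermentation, with HXK2, a hexokinase (−1.33, up to 0.085, not called without Lsm1-TAP replicate 3 or Pab1-TAP replicate 1 or 3). Of 56 amino acid synthesis genes 0 rose and 6 fell, and of 23 ergosterol genes 0 rose and 1 fell, beside 15.4% of all genes that fell. MET6, the methionine synthase, had 71.7, 98.2 and 75.1 CPM in Pab1-TAP, against 217, 575 and 458 CPM in Lsm1-TAP, 472 ± 145 CPM in the control purification and 1058 ± 567 CPM in the input (SD, n = 3) (−2.35, adjusted p = 0.0054). ILV3 had −1.03, and ERG1, the ergosterol gene, −1.58. Neither was called without Lsm1-TAP replicate 3 (up to 0.10 for ILV3, which was also lost without Lsm1-TAP replicate 2 or Pab1-TAP replicate 1 or 3, and 0.066 for ERG1). With the offset MET6, ERG1, HXK2 and ILV3 did not pass (adjusted p = 0.11, 0.12, 0.084 and 0.53). With the block added MET6, ERG1 and HXK2 did (0.026, 0.0086 and 0.030) and ILV3 did not (0.24). In the lists of glycolysis, amino acid synthesis and ergosterol 1, 1 and 0 genes fell with the offset, and 2, 8 and 2 with the block added. SSA3, a chaperone of the Hsp70 family, had 23.3, 18 and 13.6 CPM in Pab1-TAP and 132, 49.9 and 75.4 CPM in Lsm1-TAP (−2.22, adjusted p = 0.0010, and −1.53 with the offset, adjusted p = 0.0098). STE6, the exporter of a-factor, had −1.10 (up to 0.089 without Lsm1-TAP replicate 1 or Pab1-TAP replicate 2 or 3), and SCP160, an RNA-binding protein, had −1.17 (0.10 without Pab1-TAP replicate 3). Both changed sign with the offset, to 0.23 and 0.08.

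The lists of the proteasome (33 genes) and of the cell wall (32 genes) had 0 genes called in either direction by edgeR. At an unadjusted p below 0.05, 5 proteasome genes were higher and 2 lower, and 2 cell wall genes were higher and 3 lower. DESeq2 called 2 and 0 proteasome genes and 1 and 1 cell wall genes, and the fit with the replicate block called 8 and 2 and 4 and 7, higher and lower. RPN2, the most abundant proteasome mRNA here, had 191, 157 and 163 CPM in Pab1-TAP and 271, 259 and 402 CPM in Lsm1-TAP (−0.87, adjusted p = 0.11, and 0.044 with the block). CCW12, of the cell wall, had 5461, 8839 and 1534 CPM in Pab1-TAP and 1231, 3225 and 777 CPM in Lsm1-TAP, which overlapped (1.6, adjusted p = 0.23, and 0.047 with the block).

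Genes that stood out relative to their length in both offset fits, at 20 CPM or more and in the same direction in each of the 3 pairs, numbered 48 higher and 85 lower, those already named included. YPC1, a ceramidase, had 23.1, 39.0 and 113 CPM in Pab1-TAP, against 4.88, 6.17 and 9.74 CPM in Lsm1-TAP (3.0 with the offset). EEB1, an ester synthase, had 73.2, 84.4 and 122 CPM in Pab1-TAP and 21.5, 25.4 and 18.7 CPM in Lsm1-TAP (2.49 with the offset). PEX21, a peroxisomal import factor, had 36.1, 41.6 and 30.5 CPM in Pab1-TAP and 9.64, 10.3 and 5.09 CPM in Lsm1-TAP (1.79 with the offset). None of the 3 overlapped between groups. The 4 asparaginase genes ASP3-1 to ASP3-4, which are identical and share their reads, each had 794, 832 and 350 CPM in Pab1-TAP and 126, 197 and 101 CPM in Lsm1-TAP (2.18 with the offset). On the other side, RTG1, a transcription factor of the retrograde response, had 22.9, 19.7 and 11.3 CPM in Pab1-TAP and 120, 47.6 and 36 CPM in Lsm1-TAP (−2.88 with the offset, and without the offset up to 0.054 when Lsm1-TAP replicate 1 was left out). These genes were chosen after their values were seen.

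Introns were counted as features of their own. Reads in them can come from RNA that has not been spliced, and the counts do not tell this from other sources. Of 86 intron features that passed the filter on low counts, 28 rose (32.6%) and 4 fell (4.65%), with a median log2 fold change of 0.97. Of all kept features 10.1% were called in each direction. Nearly all lay in genes of the Watson strand. Of 135 intron features of Crick-strand genes, 2 had any read in the 18 libraries, against 133 of 137 on the Watson strand, so that these values cover genes of the Watson strand. An intron begins with a 5′ splice site, most often GTATGT (65.7% of the 312 annotated introns between coding blocks), and holds a branch site, TACTAAC in 74.4% of them when searched on the sense strand. Shown here are both sites of introns that moved in opposite directions, 30 bases each from the RefSeq R64 genome, with the first 6 bases of the intron or the closest match to TACTAAC in capitals. The YRA1 intron fell and the RPL30, RPL26B and RPS9B introns rose.
YRA1 5′ splice site, chrIV:1236843-1236872, plus strand: GTATGTtaatacgtgaaatgagagctattt
YRA1 branch site, chrIV:1237572-1237601, plus strand: tagagatatatGACTAACtttttttttttt
RPS9B 5′ splice site, chrII:604515-604544, plus strand: GTACGTattagactatatcgaagaggaggg
RPS9B branch site, chrII:604880-604909, plus strand: ggaaaacttttGACTAACaagaatccaatt
RPL30 5′ splice site, chrVII:439094-439123, plus strand: GTCAGTataacatgattttataactatttc
RPL30 branch site, chrVII:439267-439296, plus strand: tttgaataatcTACTAACaagttaatacgt
RPL26B 5′ splice site, chrVII:555831-555860, plus strand: GTATGTttggaggatacgaataacgataga
RPL26B branch site, chrVII:556262-556291, plus strand: agttttgctttTACTAACaaatttttttat

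YRA1 encodes an mRNA export factor whose unspliced pre-mRNA is known in yeast to be exported and decapped with the help of Edc3. Its intron, of 766 nt, had 79.4, 59.1 and 36.5 CPM in Pab1-TAP, against 589, 232 and 374 CPM in Lsm1-TAP and 95.2 ± 34.4 CPM in the control purification (SD, n = 3). All Lsm1-TAP libraries were above all others (log2 fold change −2.77 ± 0.56, adjusted p = 0.0038). The YRA1 exons had 191, 232 and 153 CPM in Pab1-TAP and 332, 211 and 297 CPM in Lsm1-TAP and overlapped (−0.54, adjusted p = 0.20). The 3 other introns that fell were in subtelomeric reading frames, YHR218W (−3.08), YPR202W (−2.21) and YRF1-3 (−2.0, up to 0.052 without Lsm1-TAP replicate 1 or Pab1-TAP replicate 1). These belong to repeated Y′ elements, whose reads can be split between copies. All 8 YRF1 ORF and exon features, the helicase genes of Y′ elements, fell as well, with a median of −2.18. The introns with the largest changes and YRA1 were named after their values were seen.

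The increases lay mostly in introns of ribosomal protein genes, of which 25 of 52 rose and 0 fell (median 1.25), against 3 higher and 4 lower of the 34 other introns. The RPL30 intron, the site through which Rpl30 controls its own splicing, had 18.6, 13.6 and 26.4 CPM in Pab1-TAP, against 2.62, 2.73 and 2.41 CPM in Lsm1-TAP and 5.87 ± 1.82 CPM in the control purification (SD, n = 3). Its groups were far apart (2.91 ± 0.46, adjusted p = 0.0010). The RPL26B intron had 96.4, 86.1 and 132 CPM in Pab1-TAP and 24.8, 18.1 and 14.8 CPM in Lsm1-TAP (2.45, adjusted p = 0.0043). The RPL28 intron, whose unspliced RNA is a known NMD substrate, had 183, 194 and 324 CPM in Pab1-TAP and 108, 71.6 and 41.6 CPM in Lsm1-TAP (1.66, adjusted p = 0.0074), while the RPL28 exons overlapped, with 1108, 2095 and 3906 CPM in Pab1-TAP and 491, 1408 and 1516 CPM in Lsm1-TAP (1.06, adjusted p = 0.21). The RPS9B intron, with the same GACTAAC as YRA1 in its branch site window, had 80.0, 94.1 and 70.0 CPM in Pab1-TAP and 37.2, 28.1 and 18.6 CPM in Lsm1-TAP (1.54, adjusted p = 0.0038). The RPS13 intron had 172, 162 and 87.1 CPM in Pab1-TAP and 110, 69.2 and 40.5 CPM in Lsm1-TAP, which overlapped (0.94, adjusted p = 0.17, and 0.024 with the replicate block). Outside the ribosome, the introns of SUS1, of the SAGA complex (2.82), and YOS1, of vesicle transport (2.30), rose from low levels.

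Over the 76 genes with both parts measured, the ratio of intron to exon reads did not separate the purifications. The library medians on the log2 scale were −5.06, −5.81 and −5.78 in Pab1-TAP and −4.41, −5.72 and −6.08 in Lsm1-TAP, a difference of −0.15 (two-sided exact permutation p = 0.8). It was 0.34 without Lsm1-TAP replicate 1, so that this library decided the sign. The ratio rose in 35 of the genes and fell in 41, taking the sign of each gene's difference.

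UTRs were counted apart from ORFs. Of 3937 3′ UTR features 391 rose and 151 fell (median 0.39), and of 1475 5′ UTR features 127 rose and 129 fell (median −0.21). For 3′ UTRs these are shares of 9.93% and 3.84% and for 5′ UTRs 8.61% and 8.75%, none above the 10.1% of all kept features called in each direction. The log2 ratio of 3′ UTR to ORF reads of the same 3536 genes had library medians of −3.53, −3.73 and −2.54 in Pab1-TAP, against −3.74, −4.05 and −3.55 in Lsm1-TAP. The control purification averaged −3.86 ± 0.16 and the input −3.88 ± 0.42 (SD, n = 3). Pab1-TAP replicate 3 was well above all others, and the remaining libraries overlapped. The difference was 0.52 (two-sided exact permutation p = 0.2), between 0.21 and 1.01 within the replicate pairs, and 0.15 without Pab1-TAP replicate 3. The ratio was on average higher in Pab1-TAP for 2841 of the 3536 genes.

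By class of coding length, the difference in 3′ UTR to ORF ratio was 0.13 in the 602 genes of up to 600 nt, 0.39 in the 1187 of over 600 and up to 1200 nt, 0.65 in the 1277 of over 1200 and up to 2400 nt and 0.92 in the 468 longer ones (exact permutation p = 0.5, 0.4, 0.3 and 0.3). With 3 against 3 libraries this p cannot go below 0.1, so the test cannot decide whether the ratio of a class differed. No class reached that smallest value. In every class Pab1-TAP replicate 3 had the highest ratio of the 6 libraries. Among the 468 longest genes it had −3.18, against −4.76 and −4.77 in Pab1-TAP replicates 1 and 2. The Lsm1-TAP libraries had −5.24, −5.52 and −4.71 there. The part of the 3′ UTR to ORF ratio in the trend with coding length was not tested. The 3′ UTR features themselves followed the coding length of their gene less closely than the genes did (Spearman correlation −0.49 over 3934 features). Of 3911 genes with both parts kept, 222 rose in both and 115 fell in both, and 0 moved in opposite directions. The 3′ UTR rose without a call on the ORF in 159, and the ORF fell without a call on the 3′ UTR in 470. The 5′ UTR to ORF ratio of 1073 genes differed by 0.24 (exact permutation p = 0.8), and by −0.07 without Pab1-TAP replicate 3.

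In each of 3 classes of noncoding transcripts more members rose in Pab1-TAP than fell. CUTs, cryptic unstable transcripts that the nuclear exosome degrades, rose in 59 and fell in 6 of 274 (median 1.09). SUTs, stable unannotated transcripts, rose in 42 and fell in 9 of 167 (median 0.64). XUTs, which are sensitive to Xrn1, rose in 90 and fell in 33 of 522 (median 0.42). These are shares of 21.5% and 2.19% of CUTs, 25.1% and 5.39% of SUTs and 17.2% and 6.32% of XUTs. Of all kept features 10.1% were called in each direction. Of 1658 XUT features listed, the 812 of the reverse strand had 0 reads in all libraries, so the XUT values cover forward transcripts only. The filter kept 274 of 2240 CUTs and 167 of 847 SUTs listed, and reads in any 3 of the 18 libraries sufficed. With 10 or more reads required in each of the 6 libraries, 960 of 8535 features of all classes rose and 1199 fell. The split by class under that filter was not counted.

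SUT073 had 5.57, 6.6 and 21 CPM in Pab1-TAP, against 0.833, 0.962 and 0.804 CPM in Lsm1-TAP (3.63, adjusted p = 0.00063), and SUT381 had 5.69, 8.75 and 15.3 CPM in Pab1-TAP and 0.238, 0.962 and 0.536 CPM in Lsm1-TAP (4.01, adjusted p = 0.00063). SUT336 went the other way, with 9.99, 9.60 and 16.3 CPM in Pab1-TAP and 80.1, 40.8 and 59.4 CPM in Lsm1-TAP (−2.34, adjusted p = 0.00063). None of these overlapped. Of the further SUTs SUT211 rose (5.19) and SUT424 (−3.29) and SUT130 (−2.29) fell, the last 2 without a call when Lsm1-TAP replicate 2 or Lsm1-TAP replicate 1 was left out (0.095 and 0.074). Among XUTs, XUT_3F-6 had 40.6, 40.5 and 148 CPM in Pab1-TAP and 7.14, 8.82 and 7.59 CPM in Lsm1-TAP (3.28, adjusted p = 0.0014). XUT_10F-42 (4.80) and XUT_4F-115 (3.29) rose as well, and XUT_13F-354 (−3.06, 0.075 without Lsm1-TAP replicate 1), XUT_1F-3 (−2.97) and XUT_7F-114 (−2.81) fell. Among CUTs, CUT_GIM_0488 had 8.10, 10.1 and 91.2 CPM in Pab1-TAP and 0.714, 1.68 and 2.41 CPM in Lsm1-TAP (4.47, adjusted p = 0.0048).

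CUT_GIM_0878 (4.51) and CUT_GIM_1268 (4.42) rose and CUT_GIM_0992 (−4.51), CUT212 (−3.74) and CUT221 (−1.82) fell. Several of these calls ended when 1 library was left out. CUT_GIM_0992 had 0.127, 1.08 and 0.359 CPM in Pab1-TAP and 0.952, 37.8 and 0.625 CPM in Lsm1-TAP, so that only Lsm1-TAP replicate 2 was high (up to 0.79, lost without it or Pab1-TAP replicate 1 or 3). CUT_GIM_1268 was high in Pab1-TAP replicate 3 alone (up to 0.27, lost without it or Lsm1-TAP replicate 1), and CUT212 and CUT221 were not called without Lsm1-TAP replicate 2 or Pab1-TAP replicate 1 (up to 0.24 and 0.14), CUT212 also not without Pab1-TAP replicate 3 and CUT221 not without Lsm1-TAP replicate 1 or Pab1-TAP replicate 2. SUT141 had 0 reads in all 18 libraries, and no value can be given for it.

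**Figure D5:**
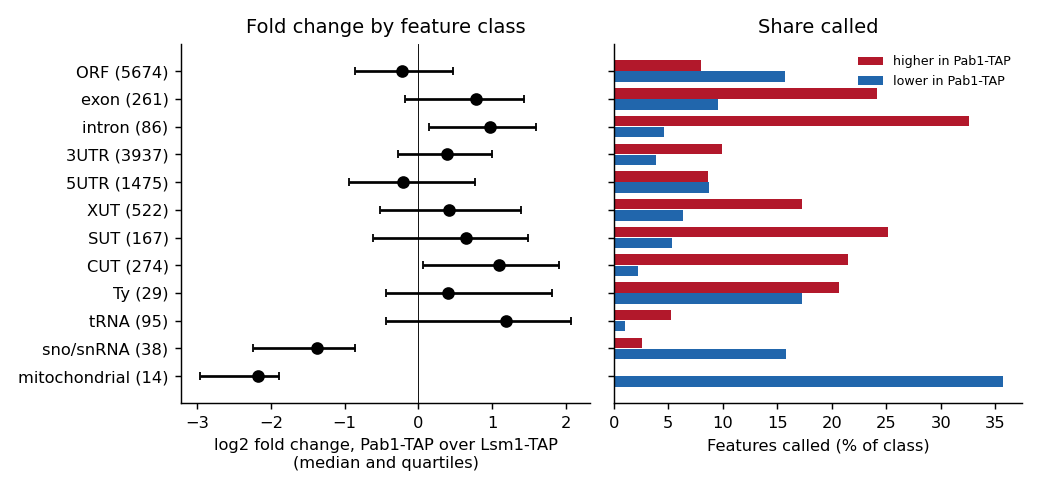
Median and quartiles of the log2 fold change, Pab1-TAP over Lsm1-TAP, by feature class with the number of kept features in brackets (left), and the share of each class called higher (red) or lower (blue) in Pab1-TAP in percent (right). Medians run from 1.19 in tRNAs to −2.18 in RNAs encoded in mitochondria. Of the classes drawn introns have the largest share of increases, 28 of 86.

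Small nucleolar and spliceosomal RNAs and RNAs of the mitochondrial genome had negative medians, while the 95 kept tRNA features had a positive one (1.19), with 5 higher and 1 lower. These tRNA shares, 5.26% and 1.05%, were below the 10.1% of all kept features called in each direction. Of 38 small nucleolar and spliceosomal RNAs 1 rose (2.63%) and 6 fell (15.8%, median −1.38), and with the replicate block 1 rose and 22 fell. They took 0.316%, 2.42% and 7.99% of the reads in Pab1-TAP and 10.5%, 16.0% and 5.80% in Lsm1-TAP, and the Pab1-TAP range overlapped that of Lsm1-TAP through replicate 3 alone. snR67, which guides methylation of ribosomal RNA, had 5.00, 56.1 and 42.0 CPM in Pab1-TAP, against 401, 1097 and 224 CPM in Lsm1-TAP and 580 ± 481 CPM in the control purification (SD, n = 3) (−4.06, adjusted p = 0.0087). snR56 had −2.72 and snR69 −2.73, the last-named without a call when Lsm1-TAP replicate 1 or 2 or Pab1-TAP replicate 1 or 3 was left out (up to 0.068). The one that rose, snR10, had 7.40, 24.2 and 190 CPM in Pab1-TAP and 9.04, 17.4 and 7.59 CPM in Lsm1-TAP, which overlapped, and its call ended without Pab1-TAP replicate 3 or Lsm1-TAP replicate 1 or 3 (up to 0.66).

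Of the 14 features of the mitochondrial genome 0 rose and 5 fell (35.7%, median −2.18), and with the block 11 fell. Mitochondrial mRNAs of yeast carry no poly(A) tail. The COX1 exons had 4.81, 20.7 and 37.2 CPM in Pab1-TAP, against 143, 171 and 690 CPM in Lsm1-TAP and 297 ± 64.1 CPM in the control purification (SD, n = 3) (−4.01, adjusted p = 0.0024). COX2, of the same enzyme, had 3.04, 5.48 and 9.88 CPM in Pab1-TAP and 31.2, 33.8 and 57.0 CPM in Lsm1-TAP (−2.76, adjusted p = 0.0015). In both the groups stood apart, and in both the control purification was nearer to Lsm1-TAP. ATP6 (−3.43), COX3 (−2.21) and COB (−2.33) also fell, each without a call when Lsm1-TAP replicate 3 or Pab1-TAP replicate 1 or 2 was left out (up to 0.15, 0.086 and 0.19), and COB also without Lsm1-TAP replicate 1. The mitochondrial ribosomal RNAs 15S_RRNA and 21S_RRNA gave no call (21S_RRNA at adjusted p = 0.048 with the block). 15S_RRNA had 0.506, 1.53 and 1854 CPM in Pab1-TAP and 14.4, 37.8 and 4946 CPM in Lsm1-TAP, so that replicate 3 was far above the others in both purifications.

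Ty elements, the retrotransposons of yeast, moved both ways, with 6 higher and 5 lower of 29 (20.7% and 17.2%). Their copies are nearly identical, so counts for a single copy are uncertain. YLRWTy1-3 had 311, 266 and 266 CPM in Pab1-TAP, against 2533, 992 and 829 CPM in Lsm1-TAP and 1720 ± 201 CPM in the control purification (SD, n = 3) (−2.37, adjusted p = 0.0014). YGRCTy2-1 (−2.14) and YJRWTy1-2 (−1.84) fell too, and YGRWTy2-2 (3.4), YLRWTy2-1 (2.95) and YCLWTy2-1 (2.91) rose. The calls on these 5 ended without single libraries (up to 0.19, 0.14, 0.061, 0.18 and 0.20), all 3 increases without Pab1-TAP replicate 3 and both decreases without Lsm1-TAP replicate 1 or Pab1-TAP replicate 2. YLRWTy2-1 and YCLWTy2-1 were also lost without Lsm1-TAP replicate 2, YGRCTy2-1 without Pab1-TAP replicate 3 and YJRWTy1-2 without Pab1-TAP replicate 1.

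Abundant noncoding RNAs of single genes showed how far the Pab1-TAP libraries differed among themselves. SCR1, the RNA of the signal recognition particle, had 876, 972 and 11078 CPM in Pab1-TAP and 6505, 8740 and 7844 CPM in Lsm1-TAP, which overlapped through Pab1-TAP replicate 3 (−0.84, adjusted p = 0.65). NME1, the RNA of RNase MRP, had 93.0, 210 and 2548 CPM in Pab1-TAP and 690, 1333 and 1850 CPM in Lsm1-TAP (−0.44, adjusted p = 0.81). snR6, the U6 RNA, which the nuclear Lsm2-8 ring binds, had 13.0, 21 and 361 CPM in Pab1-TAP and 66.8, 96.0 and 124 CPM in Lsm1-TAP (0.46, adjusted p = 0.84). In all 3, Pab1-TAP replicates 1 and 2 were below every Lsm1-TAP library and replicate 3 was above them, as its share of ribosomal RNA also was. TLC1, the telomerase RNA, had 177, 295 and 706 CPM in Pab1-TAP and 392, 636 and 541 CPM in Lsm1-TAP (−0.42, adjusted p = 0.62). RPR1, the RNA of RNase P, had 0 reads in all 18 libraries.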

How the data were processed

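RNA was purified with Pab1-TAP and Lsm1-TAP in 3 libraries each, among 18 libraries of 6 groups with 3 replicates. The deposited tables hold raw read counts per feature, made by the authors with cutadapt 1.16, STAR 2.7 and featureCounts (Subread 1.6.2, per the submitters' processing notes) on build R64-1-1. Counts were fitted with edgeR 4.0.16 (R 4.3.3, quasi-likelihood, TMM) on all 18 libraries, keeping features for which 3 or more libraries each had 10 or more reads, with Benjamini-Hochberg adjustment over 12582 features and 12 residual degrees of freedom. DESeq2 1.42.0, other scalings and filters, left-out libraries and a replicate block were alternatives. The block was used because deviations of same-numbered libraries correlated at 0.552, 0.402 and 0.575, each the highest for its number. The length offset (lowess span 0.3) and its block were added after the data had been seen. CPM values are these counts divided by the TMM-scaled library size. Ratios of gene parts used a pseudocount of 0.5 reads. Names, coordinates and coding lengths came from the RefSeq R64 annotation. The comparison, gene lists and tests were chosen with earlier results of these data known, and libraries enter by their labels.

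Named features were the 12 largest changes each way (called, mean of at least 20 CPM, same sign in all 3 pairs), the tagged genes, the most abundant called members of each list, the 3 largest changes each way of each noncoding class at 5 CPM or more, single RNAs, ribosomal protein introns and transcripts that the study names. Those added later are said to be so. Some genes with several identical copies, and strands without reads, limit single values as stated.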

Additional observations from a re-analysis of the deposited data

How the results depend on the processing

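Of 150 named calls, 148 were made by DESeq2, 150 with the replicate block, 149 with DESeq2's size factors, 81 with total count scaling and 71 when the other 12 libraries were left out, and none changed direction under these. The counts of all features higher and lower in Pab1-TAP (1268 and 1265) were 416 and 325 from the 6 libraries alone, 528 and 177 with total count scaling, 2332 and 2353 with the replicate block and 2335 and 2147 with the block in 6 libraries. With 10 or more reads required in each of the 6 libraries, 8535 features were tested, of which 960 rose and 1199 fell. That filter left 128 of the named calls to test, and all 128 held. Leaving out libraries gave 0 to 1395 higher and 0 to 1747 lower. The 0 and 0 came from edgeR without replicate 2 of all 6 groups, where 2434 features had an unadjusted p below 0.05. Genes with a coding length (500 and 902) numbered 953 and 1606 with the block, 83 and 219 with the length offset and 381 and 568 with both. With the offset, and with offset and block, 9 named genes changed sign: NMD2 (0.28 and 0.26), SCP160 (0.082 and 0.092), CDC39 (0.37 and 0.35), MTR4 (0.18 and 0.14), DIS3 (0.12 and 0.14), STE6 (0.23 and 0.26), RRP5 (0.20 and 0.17), RPO21 (0.20 and 0.20) and XRN1 (0.19 and 0.19). The offset is built to take off the trend with length. snR6 was −2.33 without replicate 3 of all 6 groups (range −2.49 to 0.99). The differences in log2 ratio to the coding part ranged, over left-out libraries, from 0.15 to 0.75 for 3′ UTRs, from −0.067 (without Pab1-TAP replicate 3) to 0.41 for 5′ UTRs and from −0.49 to 0.34 (without Lsm1-TAP replicate 1) for introns. The cause of these shifts was not tested. With 3 libraries a group, the exact permutation p cannot go below 0.1.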
